A study of Mus musculus with 14 samples.

Results

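The genes described here are 41 genes of DNA replication and S phase, taken by symbol from a deposited table of unique molecular identifier (UMI) counts for 9969 genes. All 41 had a row in that table, and 38 had enough counts to be tested. Cdc6, Tyms and Dut did not pass the filter on low counts. The cells were germinal centre (GC) B cells, sorted into light and dark zone cells, of the popliteal lymph node of chimeric C57BL/6 mice 14 days after immunization with the hapten-carrier conjugate NP-KLH. In the design text the chimeras are 50% WT and 50% SykY317F, so cells of both genotypes developed in the same hosts. There were 3 libraries of SykY317F light zone (LZ) cells, 3 of SykY317F dark zone (DZ) cells, 4 of WT LZ cells and 4 of WT DZ cells. SykY317F is a form of the kinase Syk, which transmits B cell receptor signals, with a phenylalanine in place of the tyrosine that is known as a docking site for the ubiquitin ligase Cbl. All 4 groups share the immunization and the chimeric host. The sources used here do not give the age of the mice, the cells the host kept or whether each library is a mouse of its own, so p-values measure the spread between these libraries. A point mutant is transcribed, so Syk mRNA does not check the genotype labels.

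A cell copies its genome once per division, in S phase. The licensing factors CDC6 and CDT1 load a ring of MCM proteins onto DNA, and CDC45 and the GINS complex turn the ring into an active helicase. Polymerase alpha with primase lays primers, polymerases delta and epsilon extend them on the sliding clamp PCNA, which the RFC complex loads, and RPA covers single-stranded DNA. Ribonucleotide reductase supplies building blocks, FEN1 and DNA ligase I join the lagging strand, and CAF-1, UHRF1 and DNMT1 copy chromatin and DNA methylation. Many of these genes are known targets of E2F transcription factors, which are released when a cell commits to division. In germinal centres, B cells that were selected in the LZ start the cell cycle there and go on to divide in the DZ.

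Promoters were read because E2F sites are the best known shared feature of these genes and played no part in choosing them. RefSeq promoter windows of GRCm38.p6, from 250 bases before to 50 bases after a transcription start, were matched to 33 of the 41 genes. The windows of Mcm5, Mcm6 and Mcm7, subunits of the MCM helicase, are shown as examples with an E2F motif, and that of Rpa1, the gene with the lowest p between the genotypes in LZ, as an example without one. Capitals mark E2F motif matches on either strand.

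Mcm5, chr8:75109259-75109558, plus strand: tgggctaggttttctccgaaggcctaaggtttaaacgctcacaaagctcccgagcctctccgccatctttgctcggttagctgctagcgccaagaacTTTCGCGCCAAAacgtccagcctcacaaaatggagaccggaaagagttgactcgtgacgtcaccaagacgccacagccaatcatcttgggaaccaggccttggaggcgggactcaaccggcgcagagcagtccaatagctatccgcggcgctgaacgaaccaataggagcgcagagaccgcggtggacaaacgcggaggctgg
Mcm6, chr1:128359656-128359955, minus strand: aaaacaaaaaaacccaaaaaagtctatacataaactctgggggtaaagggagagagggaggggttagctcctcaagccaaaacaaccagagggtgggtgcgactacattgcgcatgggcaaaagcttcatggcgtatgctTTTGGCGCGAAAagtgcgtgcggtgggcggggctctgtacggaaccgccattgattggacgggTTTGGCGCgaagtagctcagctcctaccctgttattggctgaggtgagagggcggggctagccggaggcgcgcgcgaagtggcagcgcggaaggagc
Mcm7, chr5:138171834-138172133, minus strand: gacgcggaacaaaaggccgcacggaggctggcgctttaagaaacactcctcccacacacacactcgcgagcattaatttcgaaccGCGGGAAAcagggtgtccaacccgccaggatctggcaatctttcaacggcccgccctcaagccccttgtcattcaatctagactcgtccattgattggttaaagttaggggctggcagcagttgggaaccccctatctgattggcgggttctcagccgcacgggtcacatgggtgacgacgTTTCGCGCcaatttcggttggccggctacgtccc
Rpa1, chr11:75348334-75348633, minus strand: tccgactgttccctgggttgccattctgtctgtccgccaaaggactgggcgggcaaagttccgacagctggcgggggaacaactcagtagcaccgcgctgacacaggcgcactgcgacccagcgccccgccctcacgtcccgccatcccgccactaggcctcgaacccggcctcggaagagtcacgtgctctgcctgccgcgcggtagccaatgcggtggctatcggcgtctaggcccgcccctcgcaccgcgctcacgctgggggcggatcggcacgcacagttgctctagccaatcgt

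The motif searched was TTTCCCGC, TTTCGCGC, TTTGCCGC or TTTGGCGC on either strand, and matches may overlap each other, as in Mcm5 and in the upstream stretch of Mcm6. It was found for 13 of the 33 replication genes (39.4%), against 5.19% of the 6228 tested genes with a window and 2.6% of all 27025 genes with one. The matches begin 153 bases before the start in Mcm5, 110 and 47 bases before it in Mcm6, and 165 bases before and 16 bases after it in Mcm7. Cdc6, Cdt1, Clspn, Dnmt1, Lig1, Mcm3, Pola1, Pold1, Rfc3 and Uhrf1 were the other 10 genes with a match. A list of 30 G2 and mitosis genes had it in 1 of 28 windowed genes (3.57%), and a wider list of other replication genes in 14 of 53 (26.4%). The CCAAT box, searched as CCAAT on either strand, was found for 66.7% of the replication genes, 21 of the 28 mitosis genes and 43.3% of the tested genes. The cell cycle homology region (CHR), searched as TTTGAA, was found for 15.2% of the replication genes, 71.4% of the mitosis genes and 14.0% of the tested genes. In Mcm7 the last base of the downstream E2F match is also the first base of a CCAAT box. Genes with several starts have more than 1 window, and counted by window the E2F motif was in 13 of 41 windows of the replication genes and 341 of 7910 of the tested genes. A match is a string of letters in this window, not a measured binding site.

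**Figure D1:**
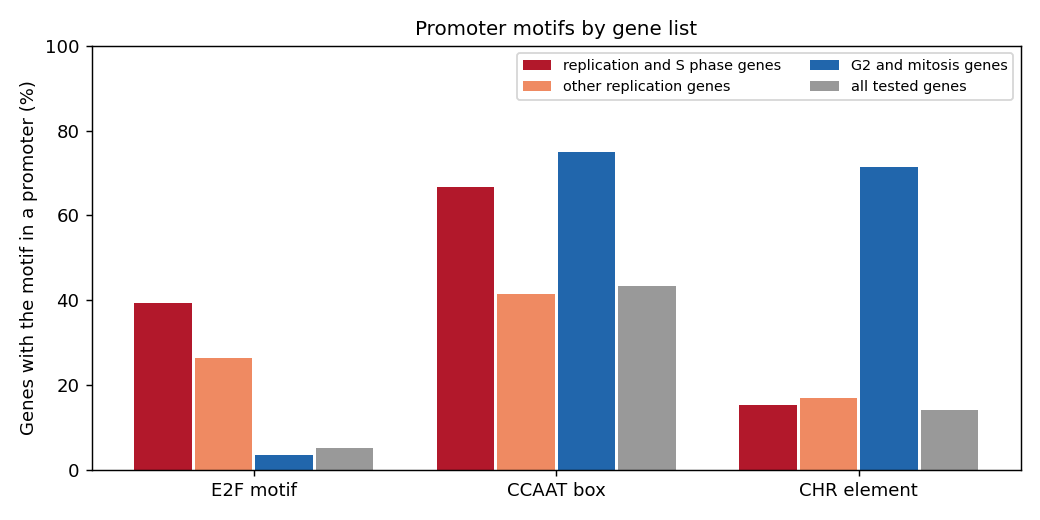
Share of genes (%) with the E2F motif, the CCAAT box or the CHR element in a RefSeq promoter window, for the replication and S phase genes, other replication genes, G2 and mitosis genes and all tested genes. The E2F bar of the replication genes stands at 39.4% and that of the mitosis genes at 3.57%, while the CHR bars stand at 15.2% and 71.4%.

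Depth differed between the groups and sets the precision of every value below. UMI totals were 149641 to 379125 in SykY317F LZ libraries, 381954 to 1413310 in SykY317F DZ, 499443 to 1600902 in WT LZ and 747948 to 1767898 in WT DZ. The 41 genes together held 507 to 1380 UMIs in a SykY317F LZ library, 1495 to 6137 in SykY317F DZ, 3411 to 8231 in WT LZ and 4128 to 9887 in WT DZ. Of the gene and library entries, 11 of 123 were 0 in SykY317F LZ and 1 of 164 in WT LZ, and 0 in each DZ group. A count of 3 UMIs, the limit that a count of 0 allows, corresponded to between 8.954 and 18.82 CPM (UMIs per library total, scaled by the TMM method) in SykY317F LZ and to between 1.732 and 8.293 CPM in the other groups. These limits cover counting error only. The B cell markers Cd79a, Cd79b, Ms4a1, Pax5 and Cd22 were above 0 in every library. In SykY317F, 6 of 7 light zone markers were higher in LZ and 4 of 5 dark zone markers lower (0 called, and 0.0375% of all tested genes). The dark zone exception was Cxcr4, with 244.6 to 485.5 CPM in SykY317F LZ and 236.1 to 337.2 CPM in SykY317F DZ. In WT, 7 of 7 light zone markers were higher (1 called) and 5 of 5 dark zone markers lower (1 called), where 0.188% of all tested genes were called.

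The summed level of the 41 genes was lower in SykY317F cells than in WT cells of the same zone, in every library. In LZ the sum was 4119, 3201 and 3180 CPM in the SykY317F libraries, against 4944, 4418, 6547 and 4752 CPM in the WT libraries. In DZ it was 4455, 3622 and 4133 CPM in the SykY317F libraries, against 5343, 5861, 4680 and 6209 CPM in the WT libraries. The genotypes did not overlap in either zone, and the ratio of the means, SykY317F over WT, was 0.678 in LZ and 0.737 in DZ. Between zones the sums overlapped in both genotypes, with a ratio of LZ over DZ of 0.86 in SykY317F and 0.935 in WT. In bulk samples fewer cells in S phase and less replication mRNA per cell cannot be told apart.

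**Figure D2:**
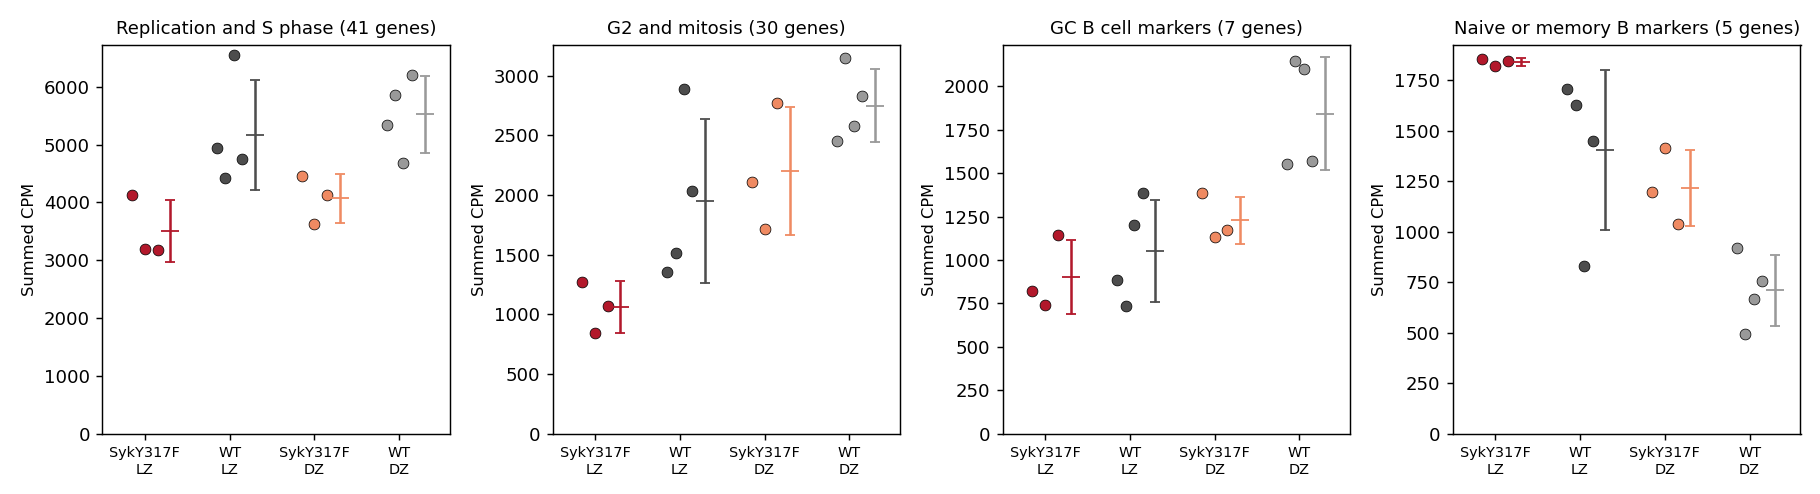
Summed CPM per library (points) with mean ± SD (n = 3 for SykY317F groups, 4 for WT groups) for the 41 replication and S phase genes, 30 G2 and mitosis genes, 7 GC B cell markers and 5 naive or memory B cell markers. The replication sums of the SykY317F libraries lie between 3180 and 4119 CPM in LZ and between 3622 and 4455 CPM in DZ, below those of the WT libraries of the same zone.

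Single genes did not pass the test between genotypes. The test was edgeR's quasi-likelihood test fitted on all 14 libraries, with Benjamini-Hochberg adjustment over 7999 genes and a threshold of 0.05, and it called 0 of the 38 tested genes in LZ, in DZ and over both zones, where 0.0% of all genes were called in each. At an unadjusted p under 0.05, 13 of the 38 were lower and 0 higher in SykY317F LZ (9.81% of all tested genes in either direction, 6.18% lower), 8 lower and 0 higher in SykY317F DZ (3.81% and 0.988%) and 21 lower and 0 higher over both zones (10.1% and 6.1%). DESeq2's Wald test called 1 gene, Rpa1, in LZ and over both zones, and 0 in DZ. It gave 33, 39 and 41 of the replication genes an adjusted p in that order, and it called 0.962%, 0.546% and 0.0201% of all genes with one. On read counts, edgeR called Rpa1 in LZ and over both zones, where 0.569% and 0.105% of all genes were called. With the filter, 34 of the 38 tested genes were lower in SykY317F in LZ, 35 in DZ and 36 over both zones. Of all 7999 genes, 54.0%, 55.0% and 55.3% were lower. Without the filter, all 41 genes entered the fit: 38 were lower in SykY317F in LZ, 38 in DZ and 40 over both zones. The median log2 fold change of the 41 was -0.62 in LZ, -0.42 in DZ and -0.58 over both zones, against -0.12, -0.04 and -0.08 for all 9969 genes in that fit. The groups did not overlap for 8 of the 38 tested genes in LZ (6.66% of all tested genes on the lower side) and for 8 in DZ (2.31%), and the SykY317F libraries were lower each time. Dut, which was not tested, also lay apart in LZ, with 0 UMIs in SykY317F LZ. In these comparisons 0 genes lay apart on the higher side (3.84% of tested genes in LZ and 3.56% in DZ). Gins1 and Gins2 did not overlap in either zone (0.275% of tested genes). The WT libraries of a zone serve both that zone's comparison and the comparison over both zones, so these counts are not independent of each other.

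**Figure D3:**
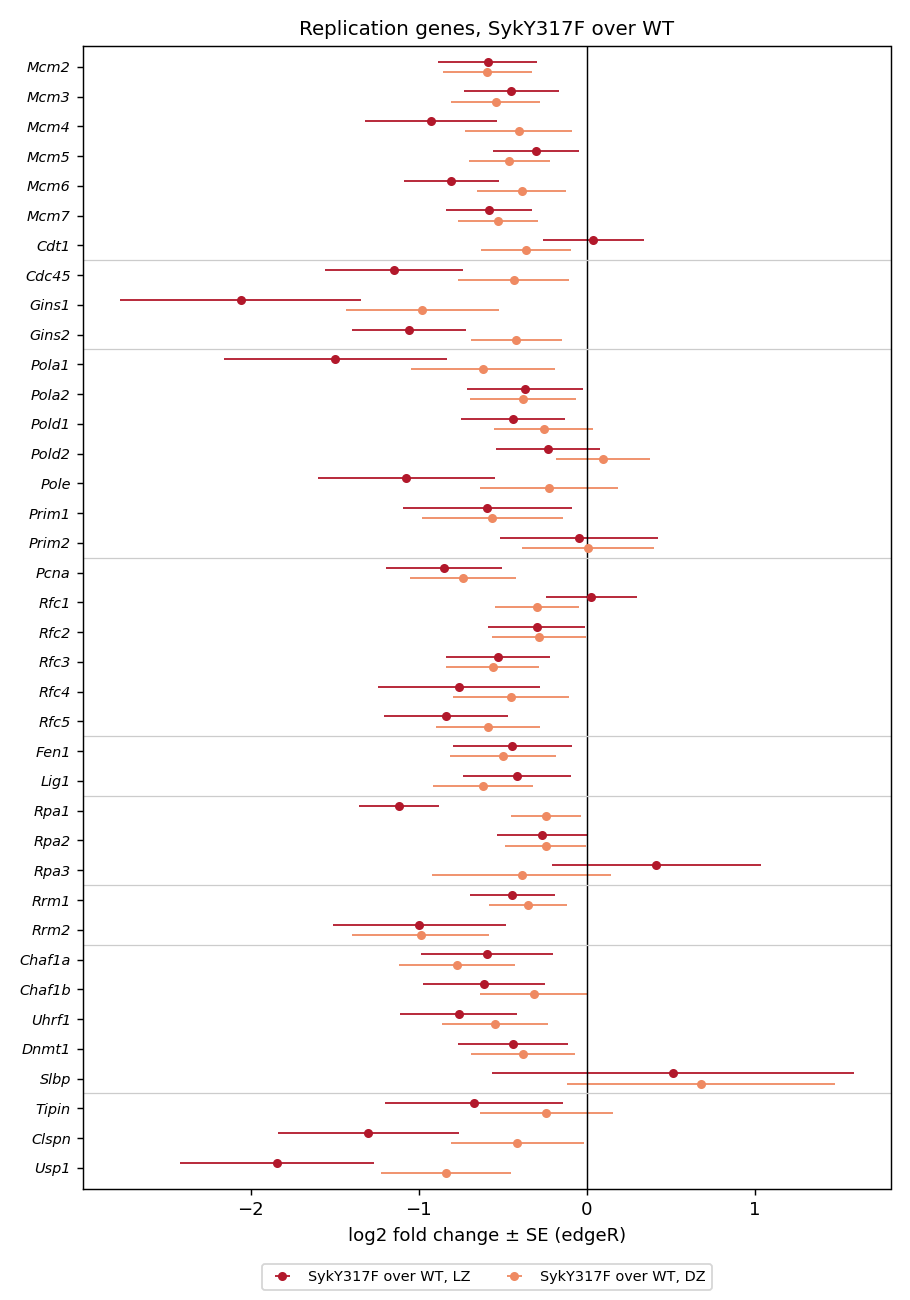
Log2 fold change ± SE of SykY317F over WT from the edgeR fit for the 38 tested replication genes, in LZ and in DZ, with lines between the role groups. Most points lie left of 0, between -2.06 (Gins1) and 0.51 (Slbp) in LZ and between -0.99 (Rrm2) and 0.68 (Slbp) in DZ.

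Nearly all genes of the MCM helicase and its loading had lower values in SykY317F. All 7 tested licensing and helicase genes had a negative log2 fold change in DZ, between -0.59 and -0.36, and 6 of 7 in LZ, where the exception was Cdt1. Mcm5 (chromosome 8, 75109569 to 75128439, GRCm38), a subunit of the ring, had 227, 294 and 282 CPM in SykY317F LZ against 267, 285, 468 and 297 CPM in WT LZ. In DZ it had 305, 260 and 301 CPM in SykY317F libraries against 340, 421, 318 and 507 CPM in WT libraries. The DZ groups did not overlap and the LZ groups did, where WT LZ replicate 3 stood far above the other WT LZ libraries. The log2 fold change of Mcm5 over both zones was -0.38 ± 0.18 (SE, edgeR adjusted p = 0.478). Here and in the figures of fold changes, SE is the size of the log2 fold change divided by the square root of the test's F statistic. It is therefore not a measure of precision apart from the test. Cdt1 (chromosome 8, 122568015 to 122573554), which loads the ring, had 83.6, 96.0 and 94.1 CPM in SykY317F LZ and 97.6, 75.1, 106 and 76.8 CPM in WT LZ. Its DZ values were 97.3, 84.8 and 77.4 CPM in SykY317F libraries and 128, 90.2, 72.1 and 157 CPM in WT libraries. Its log2 fold change was 0.04 ± 0.30 in LZ and -0.36 ± 0.27 in DZ, and the groups overlapped in both zones. Mcm4, Mcm6 and Mcm7 did not overlap between genotypes in LZ, nor Mcm2 and Mcm5 in DZ. Cdc6 had 3 UMIs in all SykY317F LZ libraries together and 25 in WT LZ, a ratio of levels of 0.746 with a 95% counting interval of 0.144 to 2.45.

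The activators of the helicase, Cdc45, Gins1 and Gins2, had negative values for SykY317F over WT in both zones, and none passed the test. Their log2 fold changes lay between -2.06 and -1.05 in LZ and between -0.98 and -0.42 in DZ. Cdc45 had 42.1, 31.6 and 35.9 CPM in SykY317F DZ against 49.2, 64.9, 37.4 and 46.5 CPM in WT DZ, which overlapped. Gins2 (chromosome 8, 120578633 to 120589304), a GINS subunit, had 32.8, 50.8 and 31.4 CPM in SykY317F LZ against 60.3, 79.1, 109 and 69.3 CPM in WT LZ. In DZ its values were 63.9, 58.5 and 71.9 CPM in SykY317F libraries against 73.8, 81.3, 72.1 and 114 CPM in WT libraries. The genotypes did not overlap in LZ, and in DZ the highest SykY317F library lay just under the lowest WT library. Its log2 fold change was -1.06 ± 0.34 in LZ (edgeR adjusted p = 0.294) and -0.42 ± 0.27 in DZ. Gins1 had 11.9, 0.0 and 0.0 CPM in SykY317F LZ against 16.5, 26.7, 28.8 and 24.2 CPM in WT LZ, and these SykY317F values rest on 4 UMIs in all.

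All 7 polymerase and primase genes had a negative log2 fold change in LZ and 5 of 7 in DZ, and none passed the test. Pola1 (chromosome X, 93304767 to 93632155), the catalytic subunit of polymerase alpha, had 14.9, 0.0 and 6.27 CPM in SykY317F LZ, from 6 UMIs in all, against 16.5, 21.7, 42.2 and 20.2 CPM in WT LZ. The DZ values were 30.5, 29.6 and 11.1 CPM in SykY317F libraries against 28.5, 53.7, 42.7 and 30.1 CPM in WT libraries. Only the LZ groups were apart, with a log2 fold change of -1.5 ± 0.66 (edgeR adjusted p = 0.456). Pold1 (chromosome 7, 44532746 to 44548849), the catalytic subunit of polymerase delta, had 322, 265 and 113 CPM in SykY317F LZ and 353, 415, 284 and 242 CPM in WT LZ. Its DZ values were 242, 248 and 257 CPM in SykY317F and 298, 250, 214 and 427 CPM in WT, and the genotypes overlapped in both zones. Pold2 (chromosome 11, 5872180 to 5878292), a second polymerase delta subunit, had 56.6, 49.1 and 55.3 CPM in SykY317F DZ against 51.8, 47.0, 46.3 and 54.6 CPM in WT DZ. Its log2 fold change of 0.10 ± 0.28 was positive in DZ, and it became -0.13 when reads were counted in place of UMIs.

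Among the clamp and its loader, Pcna and Rfc5 were lower at an unadjusted p under 0.05 in LZ, and Pcna in DZ. Pcna (chromosome 2, 132249162 to 132253314), the sliding clamp, had 137, 96.0 and 263 CPM in SykY317F LZ against 211, 214, 401 and 353 CPM in WT LZ. In DZ it had 253, 211 and 213 CPM in SykY317F libraries against 211, 454, 414 and 425 CPM in WT libraries. WT DZ replicate 2 lay with the SykY317F libraries and the other WT DZ libraries lay well above them. The log2 fold change of Pcna was -0.85 ± 0.34 in LZ, -0.74 ± 0.32 in DZ and -0.79 ± 0.23 over both zones (edgeR adjusted p = 0.413, 0.9999 and 0.234). Rfc2 (chromosome 5, 134581366 to 134601805), a clamp loader subunit, had 463, 299 and 194 CPM in SykY317F LZ and 398, 380, 463 and 356 CPM in WT LZ. In DZ its values were 359, 258 and 307 CPM in SykY317F and 390, 312, 258 and 540 CPM in WT, so the genotypes overlapped in both zones. Lig1 (chromosome 7, 13277283 to 13311433), which seals nicks of the lagging strand, had 161, 79.0 and 176 CPM in SykY317F LZ and 211, 131, 250 and 158 CPM in WT LZ. The DZ values were 140, 102 and 138 CPM in SykY317F against 233, 169, 123 and 249 CPM in WT, with a log2 fold change of -0.62 ± 0.30 and overlapping groups.

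Rpa1 (chromosome 11, 75298166 to 75348324), the large subunit of the single-strand binding protein RPA, had the lowest p of the 38 genes in LZ and over both zones. It had 107, 102 and 107 CPM in SykY317F LZ against 256, 203, 244 and 215 CPM in WT LZ. Its DZ values were 199, 155 and 171 CPM in SykY317F libraries against 195, 251, 216 and 168 CPM in WT libraries. The 3 SykY317F LZ libraries lay close together and far below every other library, and the DZ groups overlapped. These SykY317F LZ values rest on 36, 18 and 17 UMIs, so their closeness is not a measure of precision. The log2 fold change was -1.12 ± 0.24 in LZ (edgeR adjusted p = 0.111) and -0.24 ± 0.21 in DZ, and it passed in LZ by DESeq2's Wald test (adjusted p = 0.0107) and on read counts (adjusted p = 0.00841). The other subunits overlapped between genotypes in LZ. Rpa2 (chromosome 4, 132768332 to 132778752) had 98.5, 84.7 and 94.1 CPM in SykY317F LZ and 117, 125, 121 and 86.0 CPM in WT LZ. Rpa3 (chromosome 6, 8255936 to 8259173) had 38.8, 56.5 and 37.6 CPM in SykY317F LZ and 19.7, 25.7, 46.1 and 41 CPM in WT LZ, and 23.2, 41 and 47.0 CPM in SykY317F DZ and 40.1, 84.3, 57.0 and 7.54 CPM in WT DZ. Their log2 fold changes in LZ were -0.27 ± 0.27 and 0.41 ± 0.62. Whether the subunits differ from each other was not tested.

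Of the nucleotide supply genes, Rrm2 (chromosome 12, 24708241 to 24714146), the S phase regulated subunit of ribonucleotide reductase, had 42.1, 39.7 and 49.8 CPM in SykY317F DZ against 60.8, 106, 103 and 72.2 CPM in WT DZ. These groups did not overlap, and the log2 fold change of -0.99 ± 0.41 had the smallest p of the 38 genes in DZ (edgeR adjusted p = 0.9999). In LZ it had 17.9, 50.8 and 25.1 CPM in SykY317F libraries and 26.3, 30.6, 86.4 and 93.5 CPM in WT libraries, which overlapped. Rrm1 (chromosome 7, 102441695 to 102469771), the large subunit, had 150, 149 and 152 CPM in SykY317F DZ against 207, 199, 146 and 212 CPM in WT DZ. In LZ it had 146, 158 and 119 CPM in SykY317F libraries and 174, 141, 265 and 195 CPM in WT libraries, and the groups overlapped in both zones. Its log2 fold change was -0.35 ± 0.23 in DZ and -0.44 ± 0.25 in LZ. Tyms, which makes thymidylate, had 3 UMIs in SykY317F LZ and 24 in WT LZ, a ratio of levels of 0.777 with a 95% counting interval of 0.15 to 2.56. Dut, which clears dUTP, had 0 UMIs in SykY317F LZ and 14 in WT LZ, which at these depths is within the limit that a count of 0 allows.

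The genes that copy chromatin and methylation marks included Dnmt1 (chromosome 9, 20907209 to 20959888), the maintenance DNA methyltransferase. It had 293, 169 and 151 CPM in SykY317F LZ and 383, 246, 313 and 194 CPM in WT LZ. In DZ it had 230, 145 and 249 CPM in SykY317F and 290, 204, 184 and 396 CPM in WT. The genotypes overlapped in both zones, with log2 fold changes of -0.44 ± 0.33 and -0.38 ± 0.31. Chaf1a, of the histone chaperone CAF-1, did not overlap between genotypes in DZ (log2 fold change -0.77 ± 0.34). Slbp (chromosome 5, 33634952 to 33652574), which binds histone mRNA, was the one gene of this group with positive values, on few counts: it had 10.9, 2.69 and 22.1 CPM in SykY317F DZ and 7.77, 6.71, 7.12 and 4.4 CPM in WT DZ. In LZ it had 8.95, 0.0 and 12.5 CPM in SykY317F libraries and 3.29, 0.0, 9.6 and 8.08 CPM in WT libraries, and the genotypes overlapped in both zones. The highest Slbp values, 22.1, 12.5 and 10.9 CPM, were in SykY317F libraries, so it may have passed the low-count filter through them. In DZ its SE of 0.80 exceeded its log2 fold change of 0.68, and on read counts the value was -0.11.

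The fork protection genes had the most negative LZ median of the 9 role groups, -1.30 over 3 tested genes. That median rests on few counts. In all SykY317F LZ libraries together, Usp1 had 8 UMIs, Clspn 9 and Tipin 15. Usp1 (chromosome 4, 98923810 to 98935543), a deubiquitinase that acts on PCNA, had 5.97, 5.65 and 31.4 CPM in SykY317F LZ against 26.3, 35.6, 61.4 and 57.7 CPM in WT LZ. In DZ its values were 31.2, 41.7 and 33.2 CPM in SykY317F libraries against 34.9, 89.5, 68.5 and 60.3 CPM in WT libraries. In each zone the highest SykY317F library reached just above the lowest WT library. The log2 fold change was -1.84 ± 0.58 in LZ and -1.34 ± 0.35 over both zones (edgeR adjusted p = 0.284 and 0.178). Tipin, a partner of Timeless at the fork, and Clspn, a checkpoint mediator, had log2 fold changes of -0.67 ± 0.53 and -1.30 ± 0.54 in LZ.

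**Figure D4:**
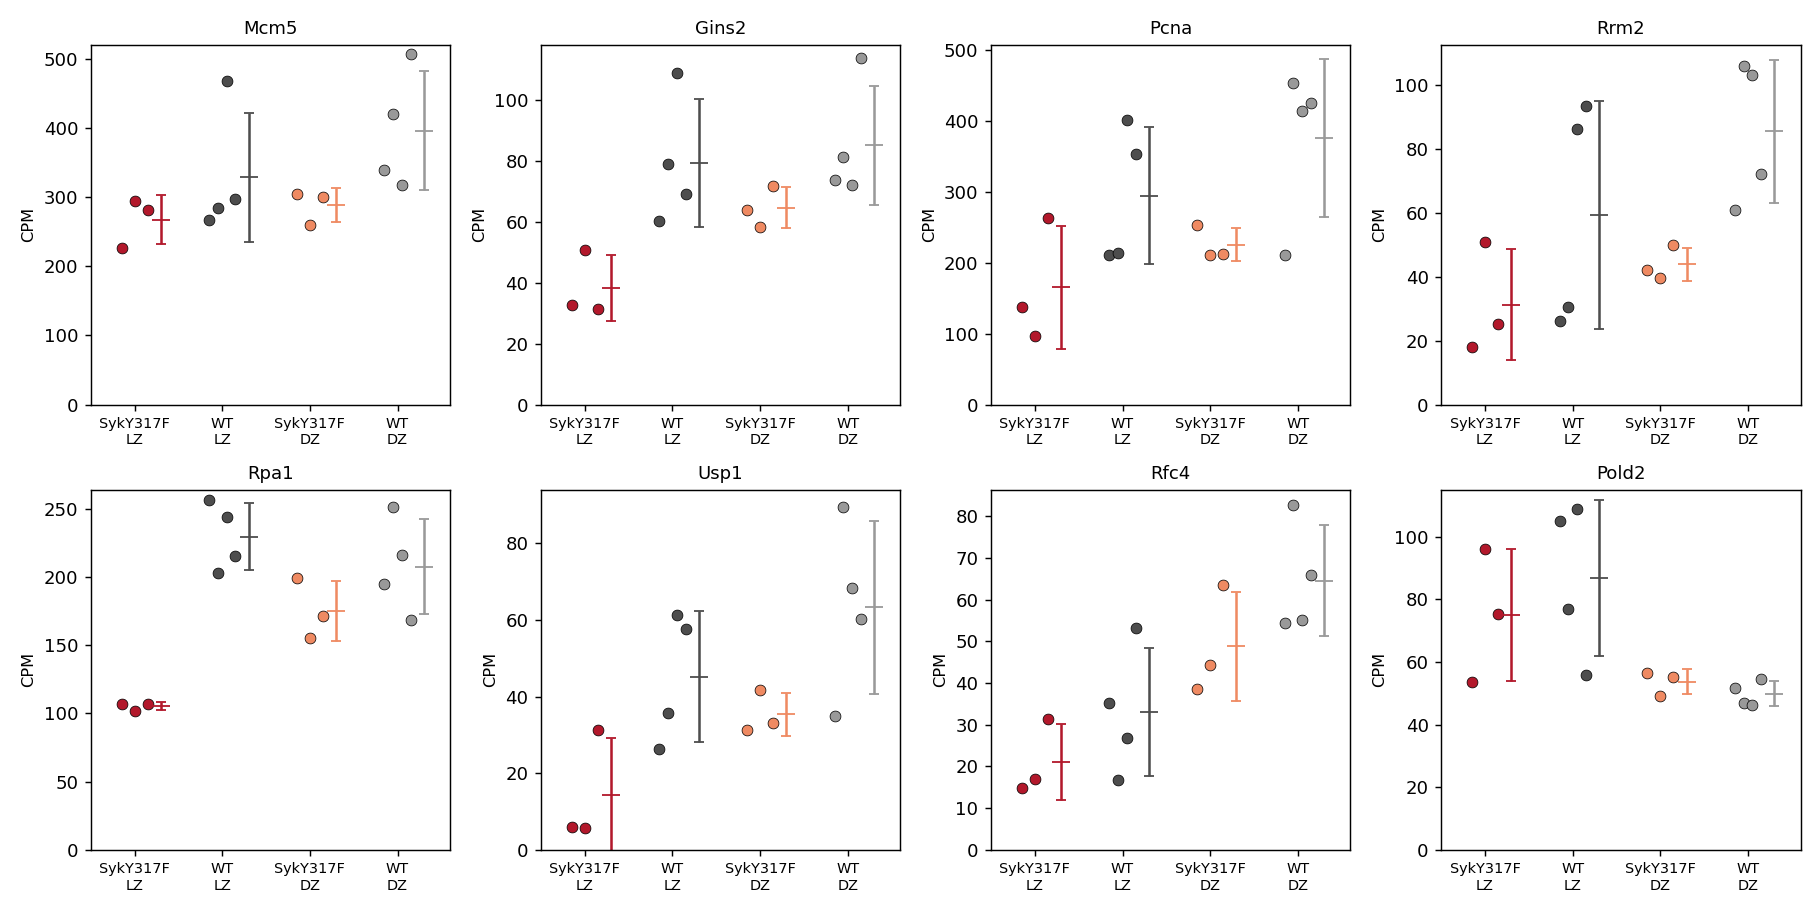
CPM per library (points) with mean ± SD (n = 3 for SykY317F groups, 4 for WT groups) of Mcm5, Gins2, Pcna, Rrm2, Rpa1, Usp1, Rfc4 and Pold2. The Rpa1 points of SykY317F LZ lie at 102 to 107 CPM, below the 203 to 256 CPM of WT LZ.

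Other values were also compared between genotypes. Some lay apart and others overlapped, and their part in the lower replication sums was not tested. Of all tested genes, 54.0% were lower in SykY317F in LZ and 55.0% in DZ, and edgeR called 0.0% in each. Summed over 5 naive or memory B cell markers (Ccr6, Fcer2a, Klf2, S1pr1 and Cd38), SykY317F LZ libraries had 1818 to 1854 CPM against 831 to 1704 CPM in WT LZ, and SykY317F DZ libraries had 1039 to 1412 CPM against 494 to 920 CPM in WT DZ. Of these 5 genes, 4 were higher in SykY317F in LZ and 5 in DZ. The 7 GC B cell markers summed to 740 to 1142 CPM in SykY317F LZ and 735 to 1385 CPM in WT LZ, and to 1131 to 1383 CPM in SykY317F DZ and 1552 to 2146 CPM in WT DZ, with 4 of 7 lower in LZ and 7 of 7 in DZ. The 6 T cell genes summed to 203 to 257 CPM in SykY317F LZ and 166 to 292 CPM in WT LZ, and to 191 to 296 CPM in SykY317F DZ and 93.2 to 188 CPM in WT DZ. Cd3e was at 0 in 4 libraries and Cd3g in 4, and most UMIs of this list were of Lck and Lat. Of the 4 tested T cell genes, 1 was higher in SykY317F in LZ and 4 in DZ, with median log2 fold changes of -0.23 and 1.90. The 8 macrophage genes summed to 47.8 to 113 CPM in SykY317F LZ and 57.6 to 161 CPM in WT LZ, and to 262 to 545 CPM in SykY317F DZ and 91.9 to 389 CPM in WT DZ. C1qa and C1qc were each at 0 in 3 libraries. Of the 7 tested macrophage genes, 1 was higher in SykY317F in LZ and 7 in DZ, with median log2 fold changes of -0.77 and 0.72. The 4 plasma cell genes summed to 310 to 715 CPM in SykY317F LZ and 218 to 573 CPM in WT LZ, and to 441 to 910 CPM in SykY317F DZ and 267 to 1228 CPM in WT DZ, with Sdc1 at 0 in 8 libraries. The 7 light zone markers summed to 2931 to 3073 CPM in SykY317F LZ and 2294 to 3192 CPM in WT LZ, and to 1636 to 2376 CPM in SykY317F DZ and 1340 to 1657 CPM in WT DZ, with 4 of 7 higher in SykY317F in LZ and 6 of 7 in DZ. The 5 dark zone markers summed to 445 to 677 CPM in SykY317F LZ and 383 to 540 CPM in WT LZ, and to 636 to 802 CPM in SykY317F DZ and 753 to 1040 CPM in WT DZ, with 3 of 5 lower in SykY317F in LZ and 4 of 5 in DZ. UMIs per 100 reads were 9.37 to 15.8 in SykY317F LZ and 33.5 to 42.5 in WT LZ, and 15.6 to 43.0 in SykY317F DZ and 42.1 to 53.2 in WT DZ.

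Thinning gave every library the same UMI total, while UMIs per 100 reads, which did not overlap between genotypes in LZ, cannot be told apart from genotype there. With every library thinned to 149641 UMIs (median of 21 draws), the replication median was -0.55 in LZ, -0.38 in DZ and -0.48 over both zones, and 30 of 31 tested genes were lower over both zones. Without the 4 libraries under 400000 UMIs, which removes SykY317F LZ whole, the DZ median was -0.46 with 36 of 39 genes lower and 1 at an unadjusted p under 0.05. WT LZ replicate 3 had the highest replication sum (6547 CPM), the highest mitosis sum of the LZ libraries (2885 CPM) and the lowest naive or memory sum of WT LZ (831 CPM). Without it the LZ median was -0.47, and 5 genes in place of 13 were lower at an unadjusted p under 0.05.

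Between zones no replication gene passed the test, and over all 14 libraries the medians were nearer to 0 than between genotypes. In SykY317F, edgeR called 0 of 38 replication genes (0.0375% of all tested genes), with 6 lower and 0 higher at an unadjusted p under 0.05 (6.23% and 4.04% of all tested genes, 10.3% together). In WT it called 0 (0.188%), and at an unadjusted p under 0.05 there was 1 lower, Rfc4, and 1 higher, Pold2 (3.89% and 4.59%, 8.48% together). Over both genotypes it called 0 (1.43%), with 6 lower and 1 higher at an unadjusted p under 0.05 (7.94% and 6.36%, 14.3% together), all by edgeR. Limma voom called 1 replication gene in WT, Rfc4, where it called 3.69% of all genes, and 0 in SykY317F (0.0375%). DESeq2 called Rfc4 over both genotypes, as 1 of 38 replication genes with an adjusted p (3.0% of all genes), and 0 in WT (1.43%) and in SykY317F (0.552%). Of the 38 tested genes, 28 were lower in LZ than in DZ in SykY317F, 25 in WT and 29 over both genotypes. Of all 7999 tested genes, 53.3%, 51.7% and 53.7% were lower. In the fit of all 41 genes without the filter, 31, 27 and 31 were lower in that order. The medians of that fit were -0.30, -0.14 and -0.22, against -0.13, -0.02 and -0.08 for all genes. The zone medians of the tested genes, -0.25 in SykY317F, -0.16 in WT and -0.20 over both, depended on single libraries. In SykY317F the median was -0.465 without LZ replicate 1 and -0.12 without LZ replicate 4. In WT it was -0.35 without LZ replicate 3, -0.03 without LZ replicate 2, -0.09 without LZ replicate 1 and -0.06 without DZ replicate 5. Over both genotypes it was -0.33 without SykY317F LZ replicate 1 and -0.30 without WT LZ replicate 3. The zones did not overlap for 5 tested genes lower in LZ (8.5% of all tested genes), for Dut, which was not tested, and for 1 gene higher (6.56%) in SykY317F, and for 2 lower (2.88%) and 1 higher (2.89%) in WT. By role, the 7 tested licensing and helicase genes were all lower in LZ over both genotypes, between -0.63 and -0.11, while 3 of the 5 chromatin and methylation genes were higher, with a median of 0.05.

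Rfc4 (chromosome 16, 23113943 to 23127737), a clamp loader subunit, was the gene nearest to the threshold between zones. It had 14.9, 16.9 and 31.4 CPM in SykY317F LZ against 38.5, 44.4 and 63.6 CPM in SykY317F DZ. In WT it had 35.1, 16.8, 26.9 and 53.1 CPM in LZ against 54.4, 82.8, 55.2 and 65.9 CPM in DZ. The zones did not overlap in either genotype, and the log2 fold change over both was -1.09 ± 0.29 (edgeR adjusted p = 0.0683). It passed by DESeq2 (adjusted p = 0.0356) and, in edgeR, without WT LZ replicate 5 (adjusted p = 0.0235), the WT LZ library in which it was highest. Rfc4 shares part of its locus with Eif4a2, so its count is uncertain. The other loader subunits had log2 fold changes between -0.23 (Rfc1) and 0.08 (Rfc2) over both genotypes.

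Tipin (chromosome 9, 64281581 to 64305424) had 29.8, 0.0 and 31.4 CPM in SykY317F LZ against 39.2, 37.7 and 71.9 CPM in SykY317F DZ. In WT it had 29.6, 19.8, 46.1 and 43.3 CPM in LZ against 49.2, 66.4, 55.2 and 52.8 CPM in DZ. The zones were apart in both genotypes, with LZ lower, and the log2 fold change over both was -0.91 ± 0.33 (edgeR adjusted p = 0.184). Usp1 and Pola1 had log2 fold changes of -1.0 ± 0.35 and -1.12 ± 0.39 over both genotypes, on the CPM given above, and overlapped between zones in both genotypes. Rfc1 (chromosome 5, 65261850 to 65335670), the large loader subunit, had 112, 98.9, 142 and 144 CPM in WT LZ and 167, 187, 182 and 117 CPM in WT DZ, which overlapped. In SykY317F it had 161, 79.0 and 132 CPM in LZ and 144, 128 and 124 CPM in DZ, which also overlapped.

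Of the 9 tested genes with positive values between zones over both genotypes, Pold2 and Rpa2 had the smallest p. Pold2 had 53.7, 96.0 and 75.3 CPM in SykY317F LZ against 56.6, 49.1 and 55.3 CPM in SykY317F DZ. In WT it had 105, 77.1, 109 and 56.0 CPM in LZ against 51.8, 47.0, 46.3 and 54.6 CPM in DZ. Every WT LZ library was above every WT DZ library, and the SykY317F zones overlapped. The log2 fold change was 0.45 ± 0.33 in SykY317F and 0.78 ± 0.25 in WT (edgeR adjusted p = 0.269 in WT). Rpa2 had 98.5, 84.7 and 94.1 CPM in SykY317F LZ against 84.2, 80.7 and 63.6 CPM in SykY317F DZ, which did not overlap, and 117, 125, 121 and 86.0 CPM in WT LZ against 81.5, 96.2, 72.1 and 115 CPM in WT DZ, which did. Its log2 fold change over both genotypes was 0.28 ± 0.18.

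**Figure D5:**
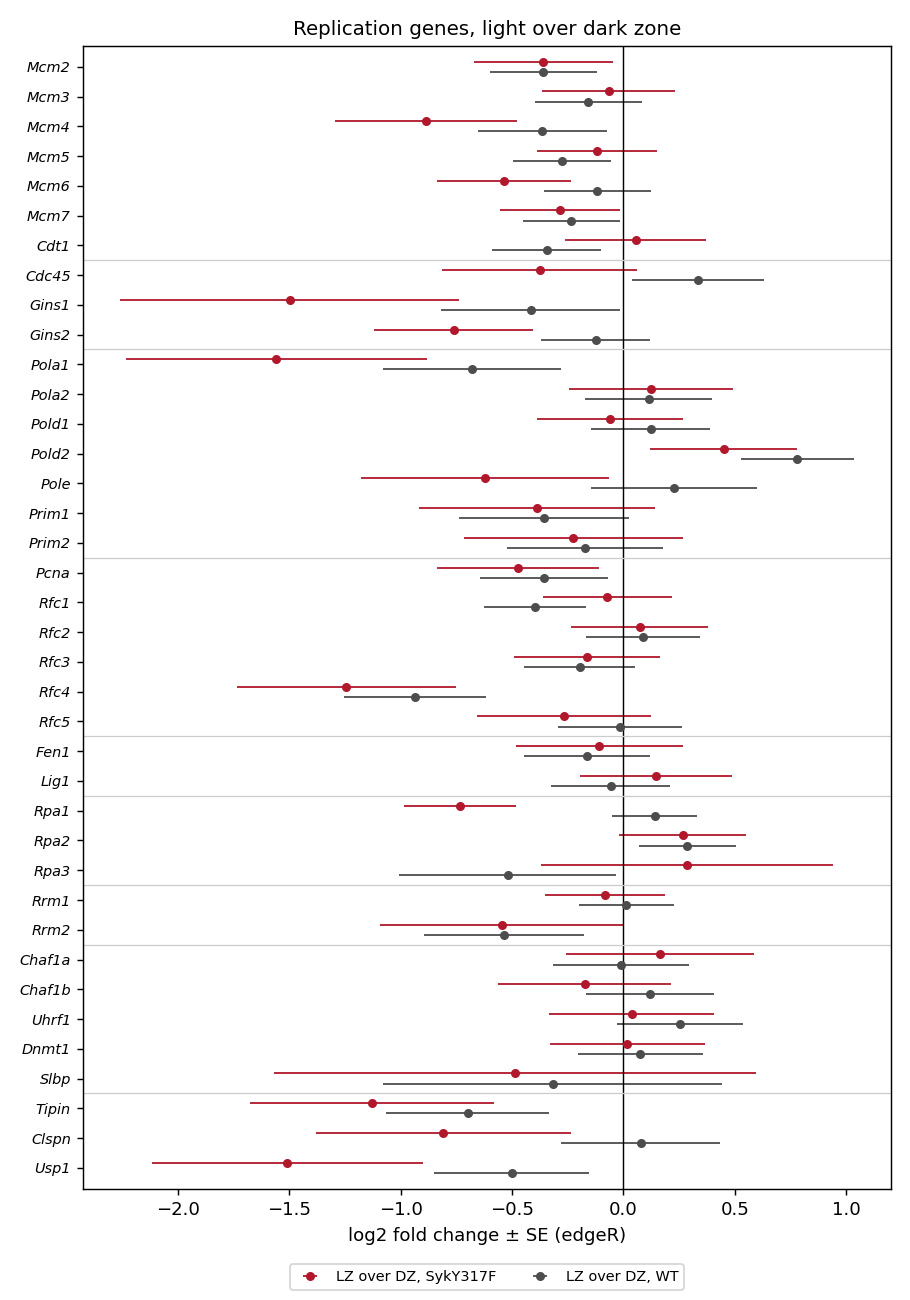
Log2 fold change ± SE of LZ over DZ from the edgeR fit for the 38 tested replication genes, in SykY317F and in WT, with lines between the role groups. In SykY317F the points lie between -1.56 (Pola1) and 0.45 (Pold2), and in WT between -0.94 (Rfc4) and 0.78 (Pold2).

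The zone effects of the genotypes were also compared with each other, as SykY317F minus WT. EdgeR called 0 of the 38 genes (0.0% of all tested genes), and 1 had an unadjusted p under 0.05, on the lower side (3.18%, and 4.8% in either direction). That gene was Rpa1, with a log2 fold change of LZ over DZ of -0.73 ± 0.25 in SykY317F and 0.14 ± 0.19 in WT, a difference of -0.88 ± 0.32 (edgeR adjusted p = 0.991). Gins2 had a difference of -0.64 ± 0.44, Rpa3 of 0.80 ± 0.82 and Cdt1 of 0.40 ± 0.40. DESeq2 called 0 of the 41 genes, with 1 at an unadjusted p under 0.05. The median difference of the 41 genes without the filter was -0.14, with 31 of 41 below 0, against -0.11 for all genes. With the filter, 27 of 38 were below 0 (53.7% of all 7999 genes). The median over the tested genes was 0.02 without WT LZ replicate 3.

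Other genes of the pathway were read from a wider list of 64 replication genes, of which 56 were tested. Between genotypes over both zones, 47 were lower and 9 higher, with a median log2 fold change of -0.37, while 55.3% of all tested genes were lower. At an unadjusted p under 0.05, 10 were lower (6.1% of all tested genes), and edgeR called 0 (0.0%). Between zones over both genotypes 36 were lower and 20 higher, with a median of -0.12, while 53.7% of all tested genes were lower. EdgeR called 1 of the 56, about as many as the 1.43% called of all tested genes would give. That gene was Pole4, a small subunit of polymerase epsilon, with 2.98, 16.9 and 25.1 CPM in SykY317F LZ against 142, 73.3 and 74.6 CPM in SykY317F DZ. In WT it had 91.1, 51.4, 82.5 and 99.3 CPM in LZ against 51.8, 92.5, 99.7 and 150 CPM in DZ. The zones were apart in SykY317F (log2 fold change -2.95 ± 0.59) and overlapped in WT (-0.29 ± 0.33). The log2 fold change over both was -1.62 ± 0.34 (edgeR adjusted p = 0.0191). In SykY317F LZ, 3 UMIs corresponded to between 8.954 and 18.82 CPM, so the Pole4 values there rest on few UMIs. Rnaseh2c had a smaller p than any other wider-list gene on the lower side after Pole4 (log2 fold change -0.71 ± 0.19), and Chtf18 (0.79 ± 0.29) and Cdca5 (0.73 ± 0.34) had the smallest on the higher side, none of which passed.

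The mitosis genes, which follow S phase, gave a second reference. Their sum was 841 to 1274 CPM in SykY317F LZ, 1357 to 2885 CPM in WT LZ, 1712 to 2773 CPM in SykY317F DZ and 2448 to 3144 CPM in WT DZ. The ratio of the means was 0.545 for SykY317F over WT in LZ and 0.8 in DZ, and 0.483 for LZ over DZ in SykY317F and 0.709 in WT. All 29 tested mitosis genes were lower in LZ than in DZ over both genotypes, with a median log2 fold change of -0.78 and 5 called by edgeR, beside 29 of 38 replication genes with a median of -0.20 and 0 called. Of all tested genes, 53.7% were lower in that contrast and 1.43% were called. Over both zones all 29 mitosis genes were lower in SykY317F, with a median of -0.67 and 0 called, beside 36 of 38 and -0.55. There 55.3% of all tested genes were lower and 0.0% were called. The lists were not tested against each other. Mki67 and Top2a are in the mitosis list and so are already counted above. Mki67, a marker of cycling cells, had a log2 fold change of -0.47 ± 0.24 for SykY317F over WT and -0.56 ± 0.24 for LZ over DZ (edgeR adjusted p = 0.516 and 0.272). Top2a, the topoisomerase of dividing cells, had -0.91 ± 0.25 and -0.39 ± 0.25 (edgeR adjusted p = 0.19 and 0.48).

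Replication genes with and without the E2F motif were described side by side and not tested against each other. For SykY317F over WT in LZ, 11 of 12 tested genes with the motif were lower, with a median log2 fold change of -0.49, and 15 of 18 without it, with a median of -0.59. In DZ it was 12 of 12 with a median of -0.49, and 16 of 18 with a median of -0.41. Over both zones, 12 of 12 tested genes with the motif were lower in SykY317F, with a median log2 fold change of -0.53, and 16 of 18 without it, with a median of -0.52. Between zones over both genotypes the medians were -0.16 and -0.14.

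On average, replication genes varied together weakly between libraries of a group, with quartiles of the pairwise r described below at -0.04 and 0.47. With each group's mean removed, the median Pearson r of log2 CPM over the 14 libraries was 0.21 across 703 pairs of the 38 genes, and 70.6% of pairs were above 0, while it was 0.003 over all pairs of tested genes. Among genes with a mean of 100 CPM or more it was 0.37 for the 17 replication genes and 0.11 for all 1767 such genes. These points share libraries and depth, and the values are a description. The genes most like Mcm5 were Tpi1 (r = 0.93), Cct5 (0.87) and Yars2 (0.86), and those most like Pcna were Tada1 (0.97), Blnk (0.96) and Tpr (0.93), over the same 14 libraries. Of the 100 genes most like each, 2 were replication genes for Mcm5 and 1 for Pcna.

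In the authors' deposited table, 1 of the 41 genes had an adjusted p under 0.05 for SykY317F LZ over WT LZ, which was Rpa1 (adjusted p = 0.0224), where 0.251% of all 9969 genes passed. In that table of the authors, as deposited, none of the 41 passed for SykY317F DZ over WT DZ, SykY317F LZ over SykY317F DZ and WT LZ over WT DZ, with lowest adjusted p of 0.416 (Mcm2), 0.353 (Rpa1) and 0.188 (Pold2), where 0.181%, 0.221% and 0.782% of all genes passed. The median log2 fold change in the authors' deposited table was -0.58 for the LZ and -0.41 for the DZ genotype comparison. Mcm7, Cdt1, Cdc45, Gins2, Rfc2, Rfc4, Rfc5, Fen1, Lig1 and Chaf1a overlap other protein-coding genes in the annotation, and Pcna and Tyms have pseudogenes, and how the authors' counting treated such reads is not known, so these counts are uncertain.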

How the data were processed

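MARS-seq libraries, which tag transcript ends with UMIs, were made from bulk sorted cells, per the labels' protocols. The build mm10 and the tools STAR 2.4.2a, cutadapt, HTSeq, DESeq and DESeq2 are listed in the submitters' processing notes, without counting settings or the use of strand. The authors deposited UMI counts for 9969 genes, read counts for 11913 gene symbols, and log2 fold changes and adjusted p-values of 4 comparisons. The authors' values entered only the paragraph that names them, and 28 other per-sample columns were not used.

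After filterByExpr, which kept 7999 genes and 99.3% of UMIs, and TMM scaling, a robust quasi-likelihood model of the 4 groups was fitted with edgeR 4.0.16 (R 4.3.3; biological coefficient of variation 32.3%). The fit over both zones or both genotypes averages the contrasts. Steps were tested on simulated counts. Alternatives were DESeq2 1.42.0, limma 3.58.1 voom, other scaling and filters, both groups alone, read counts, a replicate block, thinning, and leaving out libraries. Positions are from GENCODE release M21 (GRCm38).

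Each library's value is given for the 4 genes with the smallest p below and the 2 above 0 in each zone contrast, the 2 in each direction of the other contrasts, and the gene with the highest mean CPM of each of 9 roles, 20 in all. Genes named outside this rule were chosen after their values were seen. The genes, lists and alternatives were chosen with earlier results of these data known. Some marker genes are not reported here.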

Additional observations from a re-analysis of the deposited data

Results flagged for a closer look

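Among 4-library groups, the gap of the highest or lowest library to its nearest neighbour was large for its range (Dixon's test at 95%) in 3 of 62 cases, where chance gives about 1 in 20. Mcm5 stood at 468 CPM in WT LZ replicate 3 and at 267 to 297 CPM in the other WT LZ libraries. The macrophage gene sum of the same library was 57.6 CPM, with 153 to 161 CPM in the others. Pcna stood at 211 CPM in WT DZ replicate 2 and at 414 to 454 CPM in the other WT DZ libraries.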

How the results depend on the processing

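EdgeR called 0 replication genes in each contrast, and the counts that moved were 1 by limma voom for LZ over DZ in WT, 1 by DESeq2 for LZ over DZ over both genotypes, and 1 each by DESeq2 and by read counts for SykY317F over WT in LZ and over both zones. Leaving out 1 library at a time gave 0 to 1 calls for LZ over DZ over both genotypes and 0 otherwise, and a median difference of zone effects from -0.42 (without SykY317F LZ replicate 1) to 0.022 (without WT LZ replicate 3). The SykY317F over WT median without any 1 library ran from -0.80 to -0.47 in LZ, from -0.52 to -0.35 in DZ and from -0.68 to -0.46 over both zones. The LZ median was -0.35 without the libraries with the highest and lowest replication sums, an alternative added after seeing the data, as were thinning and leaving out the 4 libraries under 400000 UMIs. Values of single genes that reversed were Pold2 in DZ on read counts (-0.13), Slbp on read counts in DZ, LZ and over both zones (-0.11, -0.35 and -0.23), and Rpa3 over both zones by library size only (-0.062), with no filter (-0.01), by voom (-0.22), without the 2 libraries with the fewest UMIs (-0.061) and without single libraries, where it ran from -0.165 to 0.245. The causes were not tested.

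Without the 2 libraries with the fewest UMIs, which leaves 1 SykY317F LZ library that is assumed to vary like the other groups, the SykY317F over WT median was -0.40 in LZ, with 5 genes at an unadjusted p under 0.05, and the LZ over DZ median in SykY317F was -0.07. Numbers were not taken as pairs, because the labels do not say what a number marks. Same-numbered libraries did not all deviate together (r from -0.555 to 0.215, with 3 of 6 LZ libraries closest to the DZ library of their own number). At these depths such correlations cannot exclude pairing. With a replicate block 0 genes were called, and the SykY317F over WT medians were -0.48 in LZ, -0.28 in DZ and -0.42 over both zones. In the same order 6, 0 and 10 genes had an unadjusted p under 0.05. With a replicate block by genotype, 34 of 38 genes were lower in LZ than in DZ over both genotypes, with a median of -0.19 and 4 at an unadjusted p under 0.05 in place of 7. Scaling by library size alone moved the median of all genes to -0.19 for LZ over DZ in SykY317F and to -0.17 for SykY317F over WT in LZ, where the replication medians were -0.39 and -0.72. Over all genes, LZ over DZ calls were 3 in SykY317F, 15 in WT and 114 over both by edgeR, and 39, 98 and 235 by DESeq2, while limma voom called 295 in WT. SykY317F over WT calls were 0 by edgeR and 42 in LZ, 2 in DZ and 46 over both zones by DESeq2.

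Gins1 and Pola1, with 4 and 6 UMIs in SykY317F LZ, had SEs of 0.72 and 0.66 for SykY317F over WT there. The median SE of the 38 tested genes in that comparison was 0.35. EdgeR called 0 of the 38, so differences of the median size were not called for these 2 genes or for the others. A missing call at this depth does not mean that a difference is absent.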
